A study of Pimephales promelas with 191 samples.

Results

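Adult male fathead minnows (Pimephales promelas) were exposed to a mixture of 41 µg/L metformin and 100 µg/L guanylurea, and their livers were compared between the last collection, at 96 h, and the first, at 6 h. Each side held 12 RNA sequencing libraries (24 in all), chosen by treatment and time in their labels, among 16 groups of 12 libraries in the study (11 with guanylurea at 24 h). The 24 mixture libraries of 24 h and 48 h served to describe the path between both ends. The 6 h and 96 h libraries of the other 3 treatments, a control group, fish exposed to 41 µg/L metformin and fish exposed to 100 µg/L guanylurea, served to ask whether a change was shared. The 24 h and 48 h libraries of these treatments were only set beside the path of the mixture. All groups were adult males, and the labels name no strain, tank or batch. Whether each library is a fish of its own is not stated, and p-values thus cover the spread between libraries, which may be technical.

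Metformin is a biguanide drug for type II diabetes whose main target organ is the liver, where it lowers the making of glucose and acts on mitochondria and on the energy sensor AMPK. It leaves the body largely unchanged, and microbes in sewage works turn it into guanylurea, so fish downstream meet both compounds together. The liver of a fish makes plasma proteins, stores and releases fuel, and handles foreign compounds, and its transcripts also follow feeding, time of day and handling. Hours in the mixture and the occasion of collection cannot be told apart within the mixture libraries.

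The deposited values are expected counts, meaning counts per gene estimated by a program that shares reads among similar transcripts. Totals ran from 12.8 M counts (M, mega) to 22.5 M in the 6 h libraries and from 17.6 M to 22.1 M at 96 h. Total counts, genes with a count, the share of the 10 most abundant genes and the agreement with the rest of the group gave permutation p-values from 0.0316 to 0.806 between the times, and from 0.126 to 0.806 adjusted over these 4 measures. The lowest of them belonged to the genes with a count, 19699 ± 331 at 6 h and 19989 ± 294 at 96 h (SD, n = 12 each). The gene identifiers carry no names: 0 of 26150 matched the RefSeq gene table of the species. Marker genes could therefore not be looked up, neither to check the tissue nor to look for other cell types, and genes are described by identifier, level and path.

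Library 3 of the 96 h mixture group stood apart. Its agreement with its group, the median Pearson correlation of log2 CPM (CPM being the count of a gene relative to its library total) with the other libraries, was 0.928, where the other 11 lay between 0.955 and 0.963. Its 10 most abundant genes held 16% of its counts, where the other 11 libraries held between 23.8% and 36.7%. Several results that rest on this library are given with and without it. Others, such as the part of the way covered by 24 h and 48 h, are given only with it.

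The livers at 96 h differed from those at 6 h in 770 of 15105 tested genes, 5.1% of them. Expression was higher at 96 h in 320 genes (2.12%) and lower in 450 (2.98%), at a Benjamini-Hochberg adjusted p under 0.05 by the quasi-likelihood test of edgeR, which is the call used throughout. Most changes were moderate. The 320 higher genes had a median log2 fold change of 0.75 (quartiles 0.57 to 1.03) and the 450 lower genes one of −0.54 (quartiles −0.74 to −0.43), against 0.02 over all tested genes. A change of 2-fold or more was fitted for 87 of the higher genes and 35 of the lower ones. Without library 3 of the 96 h group the counts were 317 higher and 515 lower, and 647 genes were called both ways. Of those 317 and 515 genes, 53 and 38 changed by 2-fold or more. Leaving out any of 5 other libraries moved the total by more than 1.5 times: it was 486 without 6 h library 3, 464 without 6 h library 7, 504 without 96 h library 4, 473 without 96 h library 10 and 466 without 96 h library 11. Of the called genes in those 5 fits, between 454 and 499 were among the 770.

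**Figure D1:**
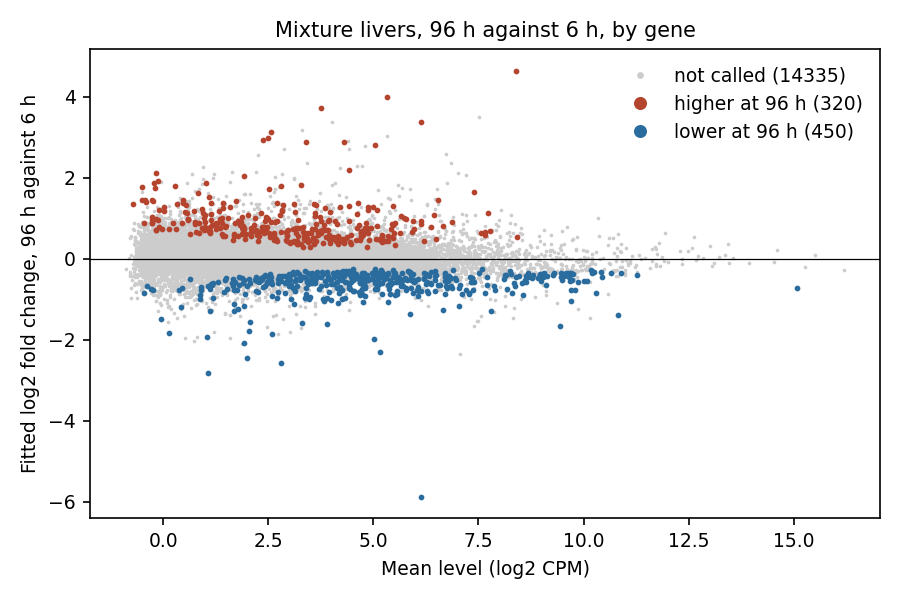
Each point is 1 of the 15105 tested genes of the mixture livers, placed by its mean level (log2 CPM, horizontal) and its fitted log2 fold change at 96 h against 6 h (vertical). The 450 lower genes reach into the most abundant transcripts. The 320 higher genes have a median level of 3.0 log2 CPM, against 2.87 for all tested genes.

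The genes that fell were on the whole more abundant than those that rose. The lower genes had a median level of 4.74 log2 CPM, the higher genes one of 3.0, and all tested genes one of 2.87. When the tested genes were ordered by level and cut into 5 equal sets of 3021, the share called as lower went from 0.497% in the least abundant set to 7.55% in the most abundant. The share called as higher lay between 1.85% and 2.38% in all 5 sets. The test has more power for abundant genes, and the median size of a called change fell from 0.98 on the log2 scale in the least abundant set to 0.55 in the most abundant.

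The 450 lower genes held 11.3% ± 1.88 of all counts at 6 h and 7.82% ± 1.15 at 96 h (SD, n = 12 each). Over the libraries the share ran from 8.67% to 14.9% at 6 h and from 5.60% to 10.1% at 96 h, so the groups overlapped. Their 96 h mean without library 3 was 8.02% ± 0.951 (SD, n = 11). The 320 higher genes held 0.430% ± 0.0848 of counts at 6 h and 0.868% ± 0.560 at 96 h (SD, n = 12 each). The 96 h value without library 3, which alone held 2.63%, was 0.708% ± 0.0750 (SD, n = 11). These shares were taken over genes chosen on the same libraries and carry no test.

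The gene FMg012992 had the smallest p among the genes that rose. Its TMM-scaled CPM ran from 24.6 to 52.8 at 6 h (median 29.0) and from 47.2 to 79.9 at 96 h (median 56.5). All 12 libraries of 96 h lay above the 6 h median and 7 of them above every 6 h library, and the groups overlapped through 6 h library 2 alone, since the next highest 6 h library held 43.2. The mean was 32.0 ± 8.42 at 6 h and 58.5 ± 9.69 at 96 h (SD, n = 12 each), a log2 fold change of 0.88 (SE 0.12, edgeR adjusted p = 0.00134). Most of its rise was in place at 24 h, with a mean of 50.9 ± 7.33, and it stood at 56.2 ± 10.1 at 48 h (SD, n = 12 each).

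FMg018179, the other rising gene named by the rule of smallest p, rose later. Its CPM ran from 7.75 to 23.1 at 6 h (median 15.0) and from 22.3 to 35.6 at 96 h (median 27.2). Of the 12 libraries of 96 h, 11 lay above every 6 h library. Its mean went from 14.8 ± 4.61 CPM at 6 h through 17.7 ± 5.35 (24 h) and 26.2 ± 3.03 (48 h) to 27.9 ± 4.20 at the end (SD, n = 12 each). The log2 fold change from 6 h to 96 h was 0.92 (SE 0.14, edgeR adjusted p = 0.00158). The step fell between 24 h and 48 h, and the spread between libraries on the log2 scale was smaller at 96 h (SD 0.21) than at 6 h (SD 0.46).

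Of all tested genes, FMg000383 had the smallest p, and it fell. Its CPM ran from 3.02 to 9.72 at 6 h (median 5.49) and from 0.839 to 3.84 at 96 h (median 2.19), and 11 of the 12 libraries of 96 h lay below every 6 h library. The log2 fold change was −1.56 (SE 0.22, edgeR adjusted p = 0.00134). Its mean was still 5.10 ± 2.08 at 24 h and had dropped to 2.52 ± 0.714 at 48 h (SD, n = 12 each), a step in the same interval as that of FMg018179. At 24 h the libraries ran from 1.8 to 7.95 CPM, which reached into the ranges of both ends.

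FMg002817 was the more abundant of the named falling genes. Its CPM ran from 217 to 437 at 6 h (median 303) and from 44.4 to 198 at 96 h (median 123), and the groups did not overlap. The log2 fold change was −1.28 (SE 0.19, edgeR adjusted p = 0.00158). It fell from the start, from a mean of 313 ± 71.4 CPM at 6 h through 196 ± 47.9 (24 h) and 151 ± 41.0 (48 h) to 128 ± 46.0 at the end (SD, n = 12 each). The lowest 96 h value was that of library 3.

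**Figure D2:**
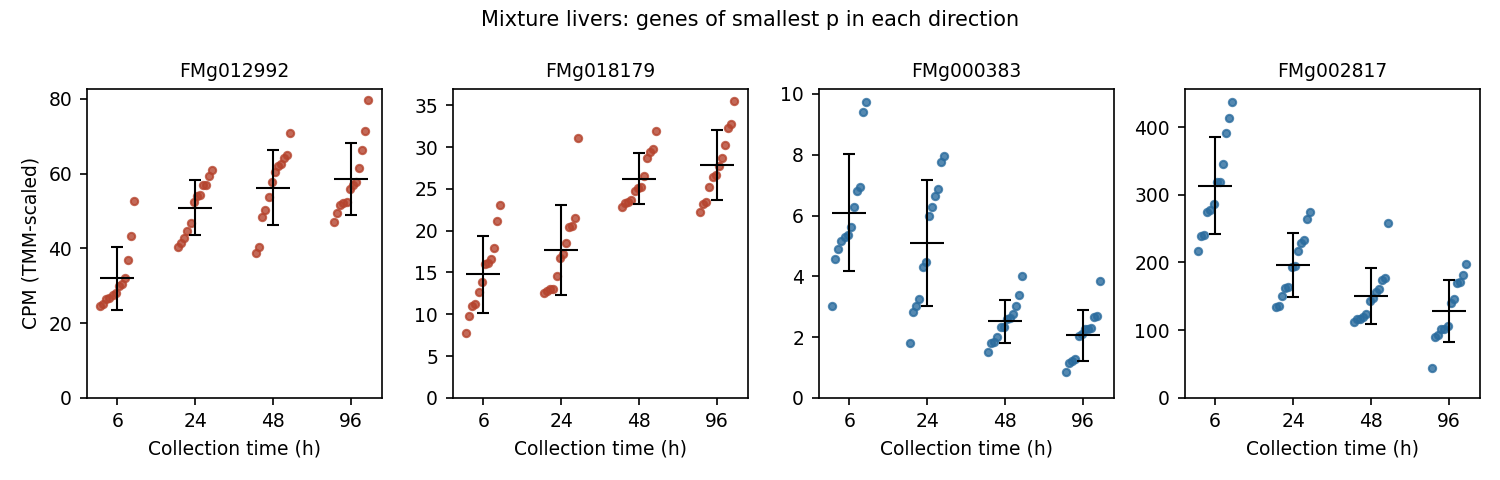
TMM-scaled CPM (vertical, from 0, with a scale of its own in each panel) of the named genes in the 48 mixture libraries by collection time (h); points are libraries, and the bar and whiskers are the mean and SD of 12. FMg012992 has made most of its rise at 24 h and FMg002817 falls from the start, while FMg018179 and FMg000383 change mainly between 24 h and 48 h.

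A complete separation of the 12 libraries at 96 h from the 12 at 6 h was rare. It occurred in 6 of the 15105 tested genes, 0.0397%, and in all 6 the 96 h libraries were the lower ones. FMg002817 is among them. The 6 genes had levels between 4.68 and 8.29 log2 CPM and log2 fold changes between −1.28 and −0.36. In each of the control, metformin and guanylurea groups all 6 were lower at 96 h too, and 5, 6 and 4 of them were called there. Of all genes tested in these groups, 2.89%, 2.49% and 0.407% were called as lower. Short of full separation, at least 10 of the 12 libraries of 96 h lay above the 6 h median in 309 of the 320 higher genes and below it in 448 of the 450 lower ones. The same held on the side of the fitted change for 31.1% of all tested genes. The genes were called on these same libraries, so high counts among them are largely fixed by the choice and are no separate support.

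The largest fitted folds belonged to another kind of gene. Of the 770 genes, 19 changed by 4-fold or more, 13 higher and 6 lower, and in 9 of the 19 the group medians lay less than 1.5-fold apart or on the other side. In 11 of the 13 higher ones, the highest 96 h value was in library 3. Without that library 8 of the 19 were still called. The genes called in that fit included 3 higher and 10 lower ones with a change of 4-fold or more. The largest fitted rise, 4.65 on the log2 scale (edgeR adjusted p = 0.0402), came with CPM medians of 18 at 6 h and 16.9 at 96 h and a value of 7506 in library 3, where the next highest library held 98.1. The largest fitted fall, −5.88 (edgeR adjusted p = 0.0152), came with medians of 1.791 CPM at 6 h and 1.797 at 96 h, and rested on 6 h libraries 3 and 11 at 1106 and 514 CPM. Both genes were picked after their values were seen, and their fitted folds rest on 1 or 2 libraries. The largest fall was also called in controls (−4.69, edgeR adjusted p = 0.0314), with metformin (−6.56, 0.0108) and with guanylurea (−6.50, 0.0406). There 1, 4 and 4 of the 12 libraries of 6 h lay above 10 CPM, and 0 of those of 96 h. At 48 h, 5, 3 and 3 libraries of these groups lay above 10 CPM, so high values were not limited to 6 h. The largest rise was not called in any of these groups between 6 h and 96 h. A single high value was not particular to the mixture, since the highest control library of 48 h held 4839 CPM, where the median was 3.32. For changes between 1.5-fold and 4-fold, the medians were also 1.5-fold or more apart in 327 of 401 genes.

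The most abundant of the 450 lower genes, picked for its level, took 4.15% ± 1.17 of all counts at 6 h, then 3.5% ± 0.569 (24 h) and 3.31% ± 0.583 (48 h), and 2.65% ± 0.730 at the end (SD, n = 12 each). Its CPM ran from 25132 to 62525 at 6 h and from 9392 to 38695 at 96 h, so the groups overlapped over much of their range. The log2 fold change was −0.73 (SE 0.20, edgeR adjusted p = 0.0348). In controls the fitted value was −0.31 (edgeR adjusted p = 0.502), with metformin −0.67 (edgeR adjusted p = 0.0293) and with guanylurea −0.51 (edgeR adjusted p = 0.171). In bulk tissue, fewer cells of a type and less RNA per cell cannot be told apart.

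The libraries of 24 h and 48 h did not choose the genes, and they placed the 770 genes mostly between both ends. The 320 higher genes stood at medians of 0.20, 0.38 and 0.73 above the 6 h mean at 24, 48 and 96 h, in log2 CPM. The 450 lower genes stood at −0.23, −0.36 and −0.54. All tested genes had medians between 0.00 and 0.01 at these times. Without the 24 h library 4 and the 96 h library 3, both of low agreement, the medians were 0.22, 0.38 and 0.67 for the higher genes and −0.24, −0.36 and −0.52 for the lower ones. The 6 h libraries enter all of these differences.

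The step from 24 h to 48 h shares no library with the comparison that chose the genes. Expression was higher at 48 h than at 24 h in 255 of the 320 higher genes (79.7%), where 49.2% of all tested genes were. It was lower in 349 of the 450 lower genes (77.6%), where 50.8% of all tested genes were. Without 24 h library 4 these counts were 242 and 346. The median difference between 48 h and 24 h was 0.14 on the log2 scale for the higher genes and −0.12 for the lower ones. In controls the same step had medians of 0.16 and −0.10, with metformin −0.02 and −0.01, and with guanylurea 0.06 and −0.06.

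How much of the way was covered early was read from group means. By 24 h the lower genes had covered a median of 0.43 of their way from the 6 h to the 96 h mean, and by 48 h 0.66. The higher genes had covered 0.30 and 0.53. At both 24 h and 48 h, 152 of the 450 lower genes (33.8%) and 58 of the 320 higher genes (18.1%) were past the midpoint, as FMg012992 and FMg002817 were. A further 162 lower genes and 110 higher genes passed the midpoint at 48 h only, as FMg018179 and FMg000383 did. Short of the midpoint at both times were 121 lower genes (26.9%) and 134 higher genes (41.9%), whose change came mainly after 48 h. The genes were chosen for their distance between 6 h and 96 h, and the 6 h mean enters both parts of each fraction. The difference between the directions was not tested.

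**Figure D3:**
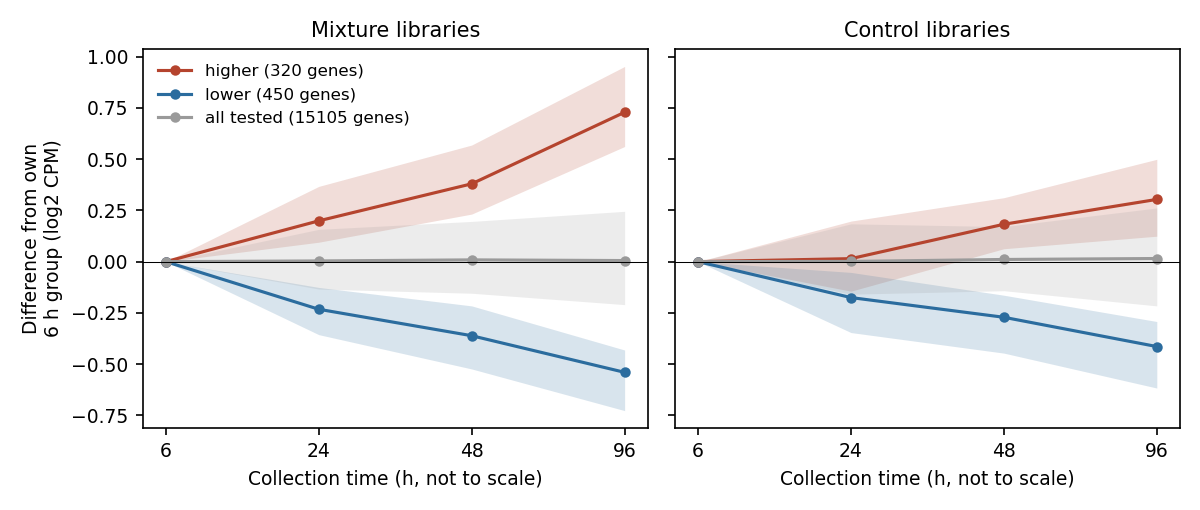
Median difference from the 6 h group of the same treatment (vertical, log2 CPM; bands are quartiles over genes) by collection time, for the 320 higher, 450 lower and all 15105 tested genes, in mixture (left) and control (right) libraries. With the mixture the higher genes climb to 0.73 and the lower genes fall to −0.54 at 96 h; in controls the same genes reach 0.30 and −0.41.

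Most genes called in the mixture had a fold change of the same direction in the other treatments. The control libraries share none with the mixture, and the same test between 96 h and 6 h called 621 genes there (4.13% of those tested), 187 higher (1.24%) and 434 lower (2.89%). With metformin it called 626 (4.17%), 252 higher (1.68%) and 374 lower (2.49%). With guanylurea it called 95 (0.624%), 33 higher (0.217%) and 62 lower (0.407%). Of the 450 lower genes, 435 of the 448 tested in controls also had a negative fold change there (97.1%), 444 of 448 with metformin (99.1%) and 439 of 450 with guanylurea (97.6%). Of the 320 higher genes, 262 of 312 were positive in controls (84.0%), 299 of 312 with metformin (95.8%) and 294 of 315 with guanylurea (93.3%). Over all tested genes the direction was shared in 66.8%, 74.6% and 70.4%. In the fit without 96 h mixture library 3, 270 of 306 higher genes were positive in controls (88.2%). All tested genes of that fit shared the direction of controls in 68.1%. No gene called in the mixture was called in the opposite direction in controls, with metformin or with guanylurea. Such opposite calls were rare over all tested genes too, with 48 of 14812 (0.324%), 23 of 14800 (0.155%) and 4 of 14882 (0.0269%). Their absence among the called genes is thus near the overall share.

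The counts of genes called in the same direction elsewhere were smaller. In controls 161 of the 448 lower genes tested there were called as lower (35.9%), but 17 of the 312 higher genes as higher (5.45%). With metformin the counts were 168 of 448 (37.5%) and 56 of 312 (17.9%), and with guanylurea 45 of 450 (10%) and 11 of 315 (3.49%). Whether these shares differ between higher and lower genes was not tested. In each case this lies above the share of all tested genes called in that direction, given above. Of genes called in both the mixture and controls there were 178, which is 23.4% of the 760 mixture genes tested there and 28.9% of the 616 control genes. With metformin 224 genes were shared, 29.5% of 760 and 35.9% of 624, and with guanylurea 56, 7.32% of 765 and 58.9% of 95. Called in the same direction in the mixture and all 3 other treatments were 27 genes (3.51% of 770). They were 26 of the 450 lower genes (5.78%) and 1 of the 320 higher genes (0.312%). Over all tested genes, 29 of 15105 (0.192%) were called in all 3 others in the direction fitted in the mixture, and the share of the higher genes is near that. The gene of the largest fitted fall, carried by few libraries, is among the 26 lower ones.

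**Figure D4:**
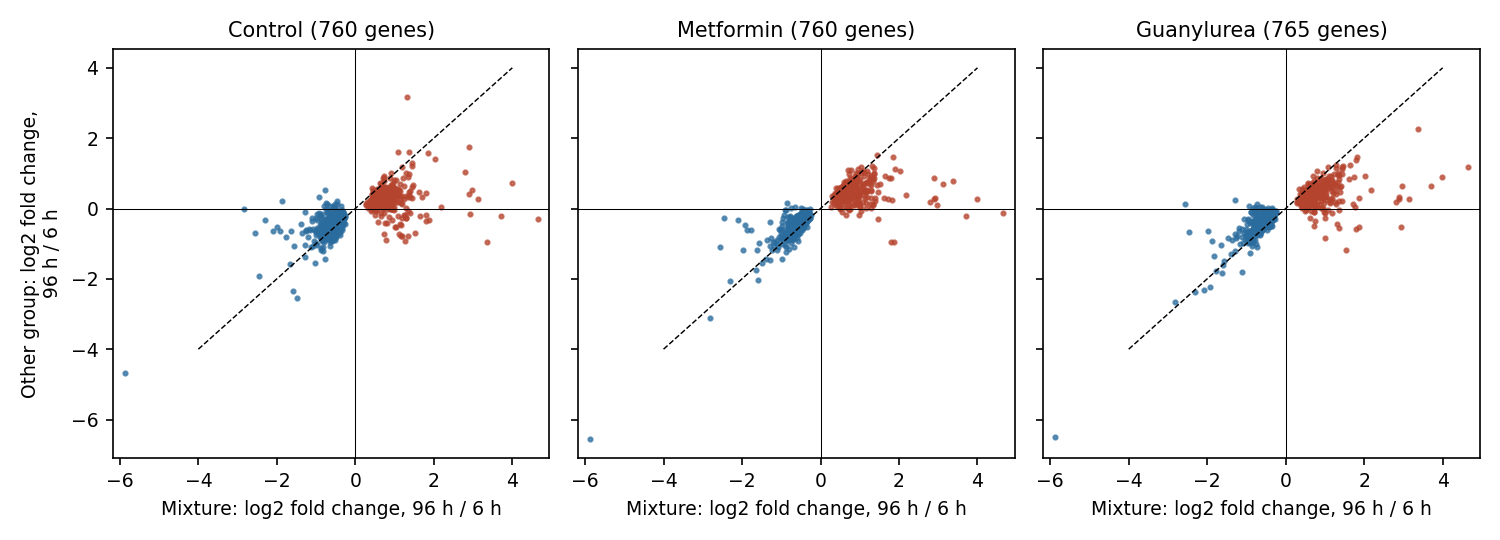
Fitted log2 fold change at 96 h against 6 h of the genes called in the mixture (horizontal) against the same quantity in control, metformin and guanylurea libraries (vertical); red points are the higher genes, blue points the lower ones, and the dashed line marks equal change. Nearly all blue points lie below 0 in the other groups (97.1%, 99.1% and 97.6%), while 84.0% of red points lie above 0 in controls.

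Sizes were smaller in the other groups, and since the genes were chosen on the mixture libraries, their change there is overstated. The lower genes had median log2 fold changes of −0.45 in controls, −0.42 with metformin and −0.34 with guanylurea, against −0.54 in the mixture. The higher genes had medians of 0.29, 0.43 and 0.39, against 0.75. Across all genes tested in both, the fold changes of the mixture correlated with those of controls at r = 0.332, of metformin at r = 0.541 and of guanylurea at r = 0.445. Genes are not independent replicates, so these values describe the tables, and no library is shared between the fits.

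The named genes had the direction of the mixture in each of the other 3 treatments. FMg002817 fell in all 3, with log2 fold changes of −1.37 in controls, −1.47 with metformin and −1.20 with guanylurea (edgeR adjusted p = 0.0097, 0.000121 and 0.0063). FMg000383 fell too, with −1.07, −0.98 and −1.49 (edgeR adjusted p = 0.0200, 0.0113 and 0.0102). FMg012992 rose by 0.62 in controls and 0.73 with metformin (edgeR adjusted p = 0.0222 and 0.00719), and had a value of 0.54 with guanylurea (edgeR adjusted p = 0.069). FMg018179 rose by 0.69 with guanylurea (edgeR adjusted p = 0.0395), with values of 0.38 in controls and 0.50 with metformin (edgeR adjusted p = 0.278 and 0.0923). All 12 of 12 libraries of 96 h lay beyond the 6 h median in the direction of the mixture for FMg012992, FMg000383 and FMg002817 in each treatment. For FMg018179 this held for 11 of 12 control and 10 of 12 metformin libraries.

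Whether the change over time itself differed was tested in a fit of the 96 libraries of 6 h and 96 h. The change in the mixture minus that in controls was called in 41 of 17218 genes (0.238%), 12 above (0.0697%) and 29 below (0.168%). Of the 770 genes 7 were among them, all higher genes. Against metformin 1 gene was called (0.00581%), outside the 770. Against guanylurea, and against the mean of the other 3 treatments, 0 of 17218 genes passed in edgeR (0%). Before adjustment 806 and 767 had an edgeR p under 0.05, a cut that a share of 0.05 passes where no gene differs. These unadjusted counts are thus no support for further differences. For the difference from controls the unadjusted count was 1597, which lies above that share, and the excess was not tested. For guanylurea DESeq2 found 11 and limma voom 0, and for the mean of the other 3 both found 0. Without the 96 h control library 2, which had low agreement, 10 genes passed for the difference from controls in place of 41, and without the 96 h mixture library 3 there were 28, of which 1 was above.

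The differences from controls are given with their intervals as a description. The called and named genes were chosen for their change in the mixture libraries, which enter each difference. Their differences are thus shifted towards the mixture change, and their intervals do not keep the stated 95%. The 95% interval of the mixture change minus the control change lay within 2-fold in either direction for 377 of the 450 lower genes (83.8%) and 159 of the 320 higher genes (49.7%), against 61.8% of all genes tested in the mixture. The width of an interval depends on level and spread, and the lower genes were more abundant and less spread than the higher ones. These shares thus do not tell which direction of change was shared more with controls. For FMg002817 the difference from controls was 0.08 on the log2 scale (95% interval −0.50 to 0.66), for FMg012992 0.24 (−0.15 to 0.63), for FMg000383 −0.50 (−1.16 to 0.15) and for FMg018179 0.53 (0.04 to 1.01). Their edgeR adjusted p-values were 0.962, 0.761, 0.682 and 0.476. Against the mean of the other 3 treatments the same genes differed by 0.06 (−0.42 to 0.53), 0.23 (−0.09 to 0.55), −0.39 (−0.92 to 0.14) and 0.39 (−0.01 to 0.78).

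Single libraries carried the pattern to different degrees. The genes were called on the 6 h and 96 h libraries, so that a separation of those groups is fixed by the choice and is given as a description. For each library, the median over the 320 higher genes of its deviation from the mixture 6 h mean was taken in log2 CPM, and likewise over the 450 lower genes. At 96 h the higher genes stood between 0.44 in library 12 and 1.22 in library 3, and the 6 h libraries between −0.24 and 0.27. The lower genes stood between −0.79 in library 3 and −0.27 in library 12 at 96 h, and between −0.24 and 0.32 at 6 h. Libraries 3 and 12 of 96 h were thus the extremes for both sets. The 24 h and 48 h libraries filled the range between. At 48 h library 8 still stood at the 6 h level for both sets, with 0.06 and 0.00, while library 9 reached 0.67 and −0.48.

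In controls the 6 h libraries were spread more widely in these genes than those of the mixture. Their medians ran from −0.16 to 0.54 for the higher genes (SD 0.25) and from −0.35 to 0.52 for the lower genes (SD 0.30), where the mixture 6 h libraries had SDs of 0.15 and 0.17 (n = 12 each). The mean of the control 6 h libraries was 0.17 for the higher genes, and it was 0.45 at 96 h. With metformin the SDs at 6 h were 0.25 and 0.19, and with guanylurea 0.21 and 0.21 (n = 12 each). The genes were chosen on the mixture 6 h libraries, which favours low values of the higher genes there. It also favours a narrow spread there, so the wider spread in controls is given as a description.

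**Figure D5:**
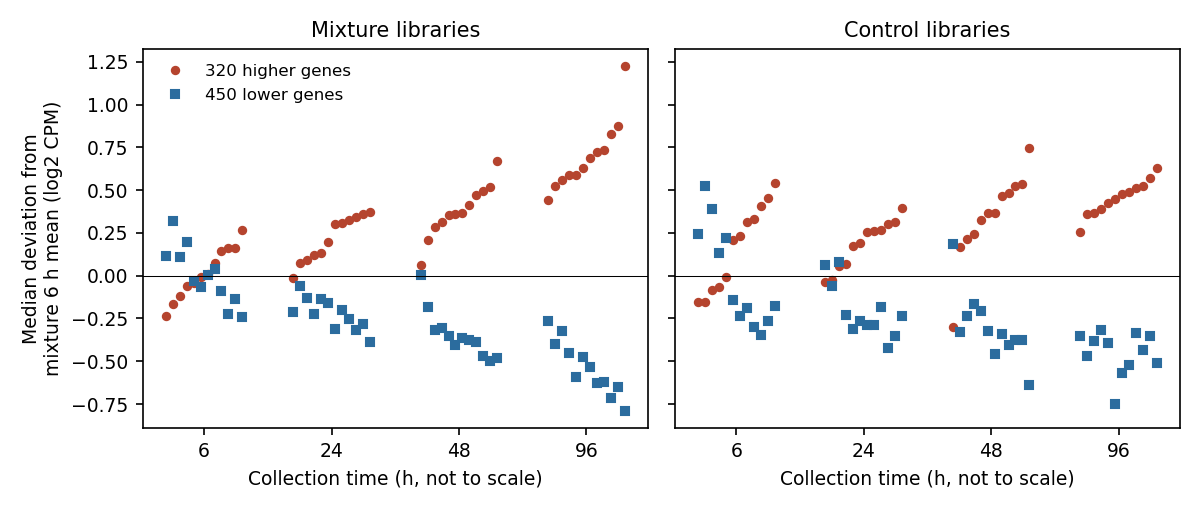
Median deviation from the mixture 6 h mean (vertical, log2 CPM) over the 320 higher genes (circles) and the 450 lower genes (squares) for each mixture (left) and control (right) library by collection time; a circle and a square at the same horizontal place are 1 library, ordered by the circle. Circles and squares part step by step from 6 h to 96 h in both panels, and several control libraries of 6 h are already apart.

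The transcript table was used to describe the direction of isoforms. Files do not pair transcripts with genes, but consecutive rows of that table sum to the count of 1 gene in every library, short by at most 1 count per transcript, and this placed transcripts for 15097 of the 15105 tested genes and for all 770 called ones. The named genes each had 1 transcript with counts. Among the higher genes 246 of 320 (76.9%) had a single transcript with a median count of 10 or more, and among the lower genes 383 of 450 (85.1%), against 82.2% of all tested genes. Where 2 or more transcripts reached that count, all of them moved in the direction of the gene in 50 of 65 higher genes (76.9%) and in 29 of 67 lower genes (43.3%). The same held for 38.6% of all tested genes with several such transcripts. The genes were called on these same libraries and their transcripts sum to the gene count. Agreement is thus partly fixed by the choice and is no separate support for isoforms moving together. Leaving out 96 h library 3 gave the same 50 and 29. How counts are split between isoforms is an estimate of the authors' program, and the difference between the directions was not tested.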

How the data were processed

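Total RNA from livers was made into stranded mRNA libraries, per the labels' protocols. The authors deposited expected counts per gene and per transcript as whole numbers, not scaled for depth. The tools named, per the submitters' processing notes, are RSEM 1.3.1, Bowtie2 2.3.5 and bcl2fastq 1.8.4. For genome build, annotation and strand setting the sources used here give nothing. RSEM shares reads that fit several genes, so near-identical copies have uncertain counts. Columns were matched to libraries by title, and 0 were left unused.

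Counts were tested with edgeR 4.0.16 in R 4.3.3: filterByExpr (minimum count 10, minimum total count 15), TMM scaling, a robust quasi-likelihood fit of group means, and Benjamini-Hochberg adjustment over all genes tested. The mixture fit used its 24 libraries, as did each fit of another treatment. The differences of the change over time used 96. The SE is the log2 fold change divided by the root of the F value. CPM values were scaled by TMM over all libraries of the study, and log2 CPM used a prior count of 2. Library measures were compared with two-sided permutation tests of 100000 draws. Transcript directions used log2(CPM + 0.1), with CPM taken over library totals without TMM scaling.

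Alternatives were voom with quality weights in limma 3.58.1, DESeq2 1.42.0, other scaling and filters, a block on the replicate number, the transcript table, a threshold of 0.10, larger fits and left-out libraries. A library had low agreement, as 6 did, when it fell short of the overall median by over 5 median absolute deviations. The fits were tested on simulated data. The named genes are the 2 of smallest p in each direction. The comparison, lists and tests were chosen with earlier results of these data known. Gene and marker lists could not be used, since no identifiers matched names. No pair of mixture libraries of 1 group agreed within sampling noise: chi-square per degree of freedom was at least 29.2.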

Additional observations from a re-analysis of the deposited data

Results flagged for a closer look

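The change over time differed between the mixture and controls by its own test in 41 genes. In the 12 above, the median over genes of the change in mean log2 CPM was 0.87 with the mixture and −0.54 in controls. It was 0.30 for metformin and 0.48 for guanylurea. In 7 of the 12 the highest control 6 h library was number 3, and in 6 the highest mixture 96 h library was number 3. In the 29 below, the medians were −0.37 with the mixture, 0.95 in controls, 0.03 with metformin and −0.32 with guanylurea. Of these 29, 12 had passed the low-count filter of the mixture fit, and in 19 the highest control 96 h library was number 2. The part of these libraries in the result was not tested beyond the counts without them, given with the comparison.

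The change in the mixture differed from that with metformin in 1 gene, whose median CPM was 1.36 at 6 h and 0.970 at 96 h with the mixture, and 0.691 and 1.41 with metformin. The highest metformin library of 96 h held 99.2 CPM and the highest mixture library 1.56.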

How the results depend on the processing

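The named genes kept direction and call in all 32 alternatives each, with log2 fold changes of 0.83 to 0.96 for FMg012992, 0.86 to 0.99 for FMg018179, −1.68 to −1.48 for FMg000383 and −1.36 to −1.18 for FMg002817. Their highest adjusted p was 0.0162, for FMg002817 with the replicate number as a block in edgeR. Being chosen for the smallest p on these same libraries, they were largely bound to keep their call, which is no separate support. Most of the alternatives left out 1 library, and the fit without libraries of low agreement was the same as that without 96 h library 3. The 770 genes of the mixture became 1388 with DESeq2 (761 of them among the 770), 1166 with limma voom (684 among the 770), 453 with no filter on low counts, which tests more genes, 1669 at a threshold of 0.10, 1305 in a fit of all libraries and 1529 in a fit of the 48 mixture libraries. Leaving out 1 library gave 464 to 963. The cause of these moves was not tested. With the replicate number as a block 100 genes were called, 90 of them among the 770. The block leaves fewer degrees of freedom, and its part in the smaller count was not tested. Deviations of same-numbered 6 h and 96 h libraries correlated between −0.139 and 0.099, and 0 of 12 correlated best with their own number. Whether equal numbers share a tank or batch is not stated, and these correlations cannot decide it. With the block, controls gave 244 genes, metformin 128 and guanylurea 50. The differences of the mixture from controls and from metformin gave 0 and 0. Before adjustment 1418 and 492 of 17218 genes had an edgeR p under 0.05, a cut that a share of 0.05 passes where no gene differs. The count for controls lies above that share and the count for metformin below it, and the excess was not tested. DESeq2 gave 1104 in controls, 1211 with metformin and 435 with guanylurea, and limma voom 215 with guanylurea. The fit of all libraries gave 1795 in controls and 348 with guanylurea, and the controls without libraries of low agreement gave 396.

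The 41 genes that differed from controls became 0 with limma voom (1098 had an unadjusted p below 0.05), 123 with no filter, 9 at a minimum count of 50, 112 at the threshold of 0.10, 121 in the fit of all libraries, 3 without libraries of low agreement, and 10 to 39 without single libraries, an alternative chosen after seeing the data. The 1 gene for metformin became 0 with DESeq2, limma voom, a minimum count of 50 and transcripts, and 5 in the fit of all libraries. In the settings that gave 0, the unadjusted p was under 0.05 in 665 and 598 of 17218, 398 of 12795 and 906 of 24796. Such counts are to be read against the share of 0.05 that passes where no gene differs. The 0 for guanylurea became 11 with DESeq2, 8 with transcripts and 8 in the fit of all libraries. The 0 for the mean of the others became 6 with no filter, 2 at a minimum count of 50, 3 at the threshold of 0.10 and 18 in the fit of all libraries. Depth limits genes of few counts: 946 tested genes lay below a mean of 1 CPM.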

Other observations

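The share of genes with a larger spread between libraries at 96 h was similar for both directions of change. The SD of log2 CPM over the 12 libraries was larger at 96 h than at 6 h in 166 of the 320 higher genes (51.9%) and in 223 of the 450 lower genes (49.6%), against 51.5% of all tested genes. The lower genes had a median SD of 0.30 at 6 h and 0.31 at 96 h, where all tested genes had 0.45 and 0.46. In the higher genes the medians were 0.45 and 0.42. The genes were called on these same libraries by a test that favours a small spread. The lower genes were also more abundant, so their narrow spread is given as a description only.

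Library 3 of the 96 h mixture group held the highest 96 h value in 152 of the 320 higher genes (47.5%) and the lowest in 176 of the 450 lower genes (39.1%). It held the highest value in 24.8% and the lowest in 25.8% of all tested genes. Library 12 of 96 h held the highest value in 5 of the higher genes and the lowest in 6 of the lower genes.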
